A study of Homo sapiens with 9 samples.

Results

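The genes described here are 40 genes of glycolysis and of the transcriptional response to low oxygen, chosen by name from the 60623 genes listed in every library. They comprise 2 glucose transporters, 16 glycolytic enzymes from hexokinase to pyruvate kinase, 2 enzymes that set the rate of glycolysis, 7 genes of the pyruvate and lactate steps, 12 hypoxia targets outside glycolysis and HIF1A. None of the 40 names occurred more than once. RNA was sequenced from U937, a human monocytic leukaemia line, in 3 stable lines that carried an inducible AML1-ETO (clone #4), an inducible ETO2-GLIS2 (clone #14) or the empty vector. Both fusion proteins had an HA tag at the N-terminus, and every line carried the same retroviral Tet3G vector with puromycin resistance. Each fusion line was 1 single-cell clone. Each line had 1 library without doxycycline (0 h) and 1 library each after 12 h and 48 h with 5 μg/ml doxycycline, which gives 9 libraries and 1 library per condition. No difference below therefore has a replicate check, and no p-value was computed.

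Glycolysis splits glucose into pyruvate in the cytosol. Pyruvate is then either reduced to lactate and exported or taken into mitochondria. At low oxygen the factor HIF-1, whose regulated subunit is encoded by HIF1A, escapes hydroxylation by the EGLN prolyl hydroxylases and activates most glycolytic genes together with genes of angiogenesis, mitophagy and collagen modification. HIF-1 is controlled mainly through the stability of its protein, which RNA-seq does not measure. The cells were grown in a humidified atmosphere with CO2, and no treatment with low oxygen is named in the labels.

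The deposited unit is FPKM, the reads on a gene per kilobase of exon and per library total. Ranks and shares of different genes therefore also depend on the exon length used for each gene. For 23 of the 40 genes this length equalled the bases of all annotated exons together. Changes are given as log2 fold changes of FPKM plus 0.01 against the 0 h library of the same line, and the 12 h and 48 h comparisons of a line share that library. Square-bracketed ranges are 95% intervals from the reads behind the FPKM, and they cover counting error only. A change past 2-fold is called a rise or a fall. Of the 40 genes, 29 had a mean of at least 1 FPKM over the 9 libraries, against 11820 of all genes, and the counts below use those 29 and 11820. They include 12 of the 16 enzymes and 6 of the 12 hypoxia targets.

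As a check of the labels, RUNX1T1, which encodes ETO, stood at 0.512, 22.2 and 28.7 FPKM at 0, 12 and 48 h in AML1-ETO cells and at most 0.024 FPKM in the other lines. GLIS2 stood at 2.39, 6.79 and 8.85 FPKM in ETO2-GLIS2 cells and at 2.47 to 5.6 FPKM elsewhere. Depth was 15136399 to 18443642 reads on genes per library. Of 8 monocytic markers 5 passed the level of 1 FPKM, while CD68 was at most 0.0283 FPKM, MPO at most 0.78 FPKM and CSF1R at most 1.55 FPKM. Overlap of marker exons with those of other genes was not examined, so these low values may not mean low expression. Markers of T cells, erythroid cells and fibroblasts summed to at most 0.283 FPKM. The 3 B cell markers summed to 1.91 to 5.77 FPKM. The summed monocytic markers stood at 1327, 1689 and 272 FPKM with AML1-ETO, against 800 to 1128 FPKM with the empty vector and 851 to 1893 FPKM with ETO2-GLIS2. With AML1-ETO, LYZ was at 970, 1346 and 45.1 FPKM and made up most of this sum at 0 h and 12 h but not at 48 h. CD4, at 218, 239 and 191 FPKM in that line, made up most of it at 48 h. There SPI1 was at 92.6, 53.1 and 11.9 FPKM over time and CD33 at 6, 8.24 and 6.65 FPKM. With ETO2-GLIS2, LYZ was at 1283 FPKM at 0 h and 332 FPKM at 48 h, while FCER1G was at 51.6 and 217 FPKM, so the markers did not move as 1 group. Their part in the results at 48 h was not tested. In bulk RNA, fewer cells of a type and less RNA per cell cannot be told apart.

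With AML1-ETO at 48 h, PKM, SLC16A3, GPI, GAPDH and the hypoxia target NDRG1 fell while HK2 and HIF1A rose. The HIF1A value was within 2-fold, at 0.92, when libraries were rescaled by their median ratio. Neither the empty vector line nor the ETO2-GLIS2 line had a glycolytic enzyme that fell past 2-fold at either time. PFKFB4 fell in all 3 lines at 12 h, and HK3 rose in all 3 lines at 12 h. VEGFA, the angiogenic growth factor, rose at 48 h in the empty vector and ETO2-GLIS2 lines.

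For the 12 enzymes, the median log2 fold change was -0.08 at 12 h and -0.12 at 48 h with the empty vector, -0.01 and -0.38 with AML1-ETO, and 0.07 and -0.08 with ETO2-GLIS2. The 6 hypoxia targets had medians of 0.32 and 0.32 with the empty vector, 0.15 and 0.12 with AML1-ETO, and 0.08 and 0.14 with ETO2-GLIS2. Over all 11820 genes, the medians at 12 h and 48 h were 0.14 and 0.16, 0.18 and 0.18, and 0.11 and 0.16 in the same order of lines. The enzyme median was thus below that of all genes in all 6 comparisons. The target median was above it with the empty vector at both times and below it in the other 4 comparisons, although that of ETO2-GLIS2 at 48 h became 0.28 when a gene needed a mean of 5 FPKM, or a mean of 1 FPKM over the 2 libraries compared. The difference of the medians, targets minus enzymes, was 0.40 and 0.44 with the empty vector, 0.16 and 0.50 with AML1-ETO, and 0.01 and 0.23 with ETO2-GLIS2. With all 16 enzymes and 12 targets and no filter on low values, the AML1-ETO enzyme median at 48 h turned to 0.10 and the difference to -0.10. The ranges of the enzymes and of the targets overlapped in every comparison. In the AML1-ETO line at 48 h the enzymes ran from -3.20 to 1.62 and the targets from -1.22 to 0.86.

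**Figure D1:**
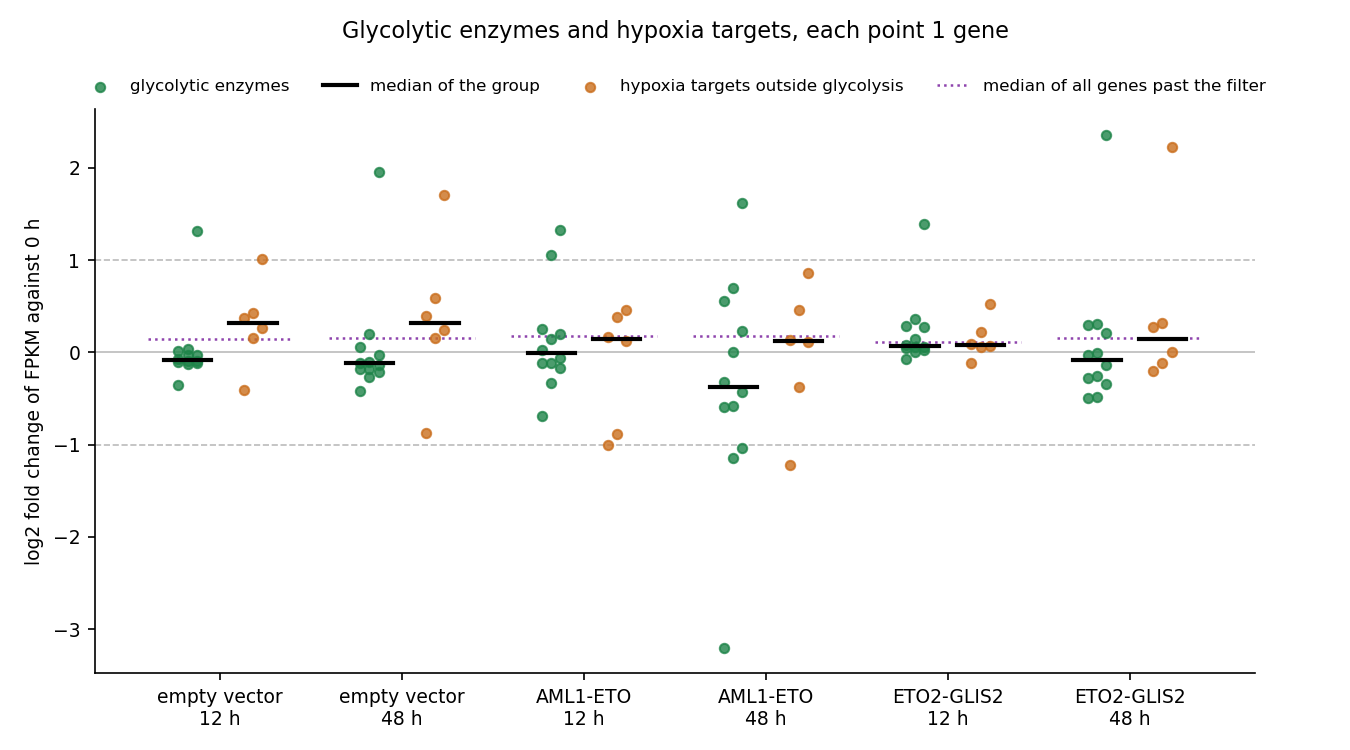
Log2 fold change of FPKM against 0 h (vertical axis) for the 12 glycolytic enzymes (green) and 6 hypoxia targets (orange) with a mean of at least 1 FPKM, by line and time (horizontal axis). Each point is 1 gene, black bars are group medians, dotted lines the medians of all 11820 genes, and dashed lines mark 2-fold. The enzymes spread furthest in the AML1-ETO line at 48 h, from -3.20 to 1.62 around a median of -0.38.

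Counts past 2-fold were small and mostly near those of all genes. In the empty vector line, 2 of the 29 genes rose and 1 fell at 12 h, where 5.84% of all genes rose and 1.64% fell. At 48 h the same line again had 2 rises and 1 fall, against 8.35% and 2.99% of all genes. In the AML1-ETO line, 2 rose and 2 fell at 12 h, against 6.66% and 2.34%. At 48 h of AML1-ETO, 2 genes (6.90%) rose and 5 (17.2%) fell, against 15.0% and 12.2% of all genes. In the ETO2-GLIS2 line, 1 rose and 1 fell at 12 h, against 4.02% and 1.67%, and at 48 h 3 (10.3%) rose and 1 (3.45%) fell, against 10.8% and 2.79%. In all, 11 of the 29 genes passed 2-fold in at least 1 of the 6 comparisons, and the other 18 stayed between -0.89 and 0.95. That is 37.9% of the 29, against 36.6% of all genes. HIF1A, HK3, KDM3A, PFKFB3, SLC2A1 and VEGFA had a log2 fold change above 0 in all 6 comparisons, which is 20.7% of the 29 against 26.0% of all genes. EGLN1, PDHA1, PDK3 and PFKFB4 were below 0 in all 6, 13.8% against 6.16% of all genes. Both counts use the sign only, and some intervals spanned 0. Examples are EGLN1 with ETO2-GLIS2 at 48 h, -0.20 [-0.65 to 0.24], and SLC2A1 with the empty vector at 48 h, 0.02 [-0.13 to 0.16].

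**Figure D2:**
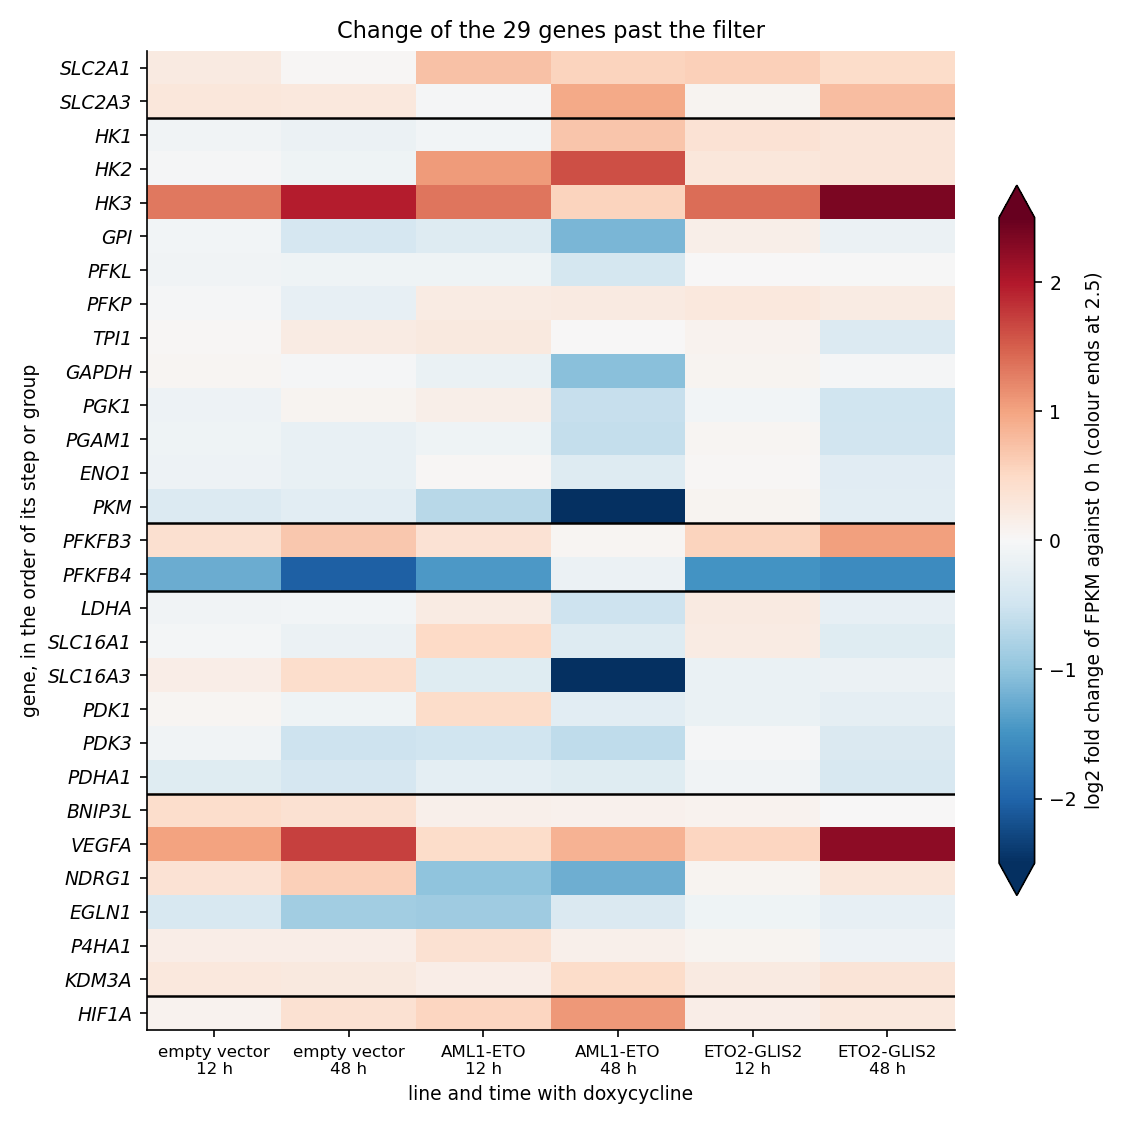
Log2 fold change of FPKM against 0 h (colour, red higher and blue lower, ending at 2.5) for the 29 genes with a mean of at least 1 FPKM (rows, in the order of their step or group, groups parted by lines) in 3 lines at 12 h and 48 h (columns). The deepest blue cells are PKM (-3.20) and SLC16A3 (-2.66) in the AML1-ETO line at 48 h.

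Before induction the lines were similar for most of these genes. The highest of the 3 libraries at 0 h was 1.03 to 1.71 times the lowest for 27 of the 29 genes, with a median over the 29 of 1.27. Only HK3 (3.79 times) and EGLN1 (2.6 times) were past 2-fold, while 12.3% of all genes were. These ratios are between different lines and are no measure of the spread between cultures of 1 line.

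Glucose enters the cell through SLC2A1 (GLUT1) and SLC2A3 (GLUT3), and neither passed 2-fold in any comparison. SLC2A1 (ENSG00000117394, chromosome 1 of GRCh38 from 42925353 to 42958868) stood at 10.9, 12.8 and 11 FPKM at 0, 12 and 48 h in the empty vector line. It stood at 9.14, 15.1 and 13.5 FPKM in the AML1-ETO line and 8.05, 12.2 and 11 FPKM in the ETO2-GLIS2 line. All 3 lines were highest at 12 h, with log2 fold changes of 0.23 [0.09 to 0.37], 0.73 [0.59 to 0.87] and 0.59 [0.45 to 0.74]. SLC2A3 was lower, at 3.04 to 7.72 FPKM over the 9 libraries. Its highest values were those of the fusion lines at 48 h, 0.95 [0.78 to 1.13] with AML1-ETO and 0.77 [0.60 to 0.95] with ETO2-GLIS2 on the log2 scale, against 0.27 [0.04 to 0.50] in the empty vector line.

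Hexokinases phosphorylate glucose and commit it to the cell. HK2 (ENSG00000159399, chromosome 2 from 74834127 to 74893359), an isoform that binds mitochondria and is common in tumours, stood at 22.2, 46.4 and 68.2 FPKM in the AML1-ETO line. Its levels were 29.5, 28.9 and 27.5 FPKM in the empty vector line and 23, 28.1 and 28.4 FPKM in the ETO2-GLIS2 line. Both induced AML1-ETO libraries lay above the other 7. The log2 fold change with AML1-ETO was 1.06 [0.99 to 1.14] at 12 h and 1.62 [1.55 to 1.69] at 48 h, and 6.08% of all genes had a larger value at 48 h. The 12 h value dropped to 0.90, under 2-fold, when libraries were rescaled by their median ratio.

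HK3 (ENSG00000160883, chromosome 5 from 176880869 to 176899346), the hexokinase of myeloid cells, stood at 1.93, 4.84 and 7.53 FPKM in the empty vector line. The AML1-ETO line had 7.36, 18.6 and 10.8 FPKM and the ETO2-GLIS2 line 4.25, 11.1 and 21.9 FPKM. Every induced library was above the 0 h library of its line. At 12 h the log2 fold changes were close to each other, 1.32 [0.99 to 1.67], 1.33 [1.17 to 1.51] and 1.39 [1.18 to 1.60] in the order empty vector, AML1-ETO, ETO2-GLIS2. At 48 h they were 1.96 [1.64 to 2.29], 0.56 [0.37 to 0.75] and 2.36 [2.17 to 2.56]. The rise in the empty vector line came with the drug and with time in culture, which cannot be told apart. Beside these changes the 0 h levels already differed 3.79-fold between the lines.

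HK1, the widely expressed isoform, ranged from 18.1 to 30.5 FPKM and was highest in the AML1-ETO line at 48 h, at 0.70 [0.62 to 0.78]. Summed over the 3 isoforms, hexokinase was 48.4, 83.1 and 110 FPKM over time with AML1-ETO and 47.7, 65.5 and 75.7 FPKM with ETO2-GLIS2, while the empty vector line stayed at 55.6 to 57.1 FPKM. The makeup differed between the fusion lines at 48 h. HK2 made up 62.3% of the sum with AML1-ETO and 37.5% with ETO2-GLIS2, and HK3 made up 9.89% and 28.9%.

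**Figure D3:**
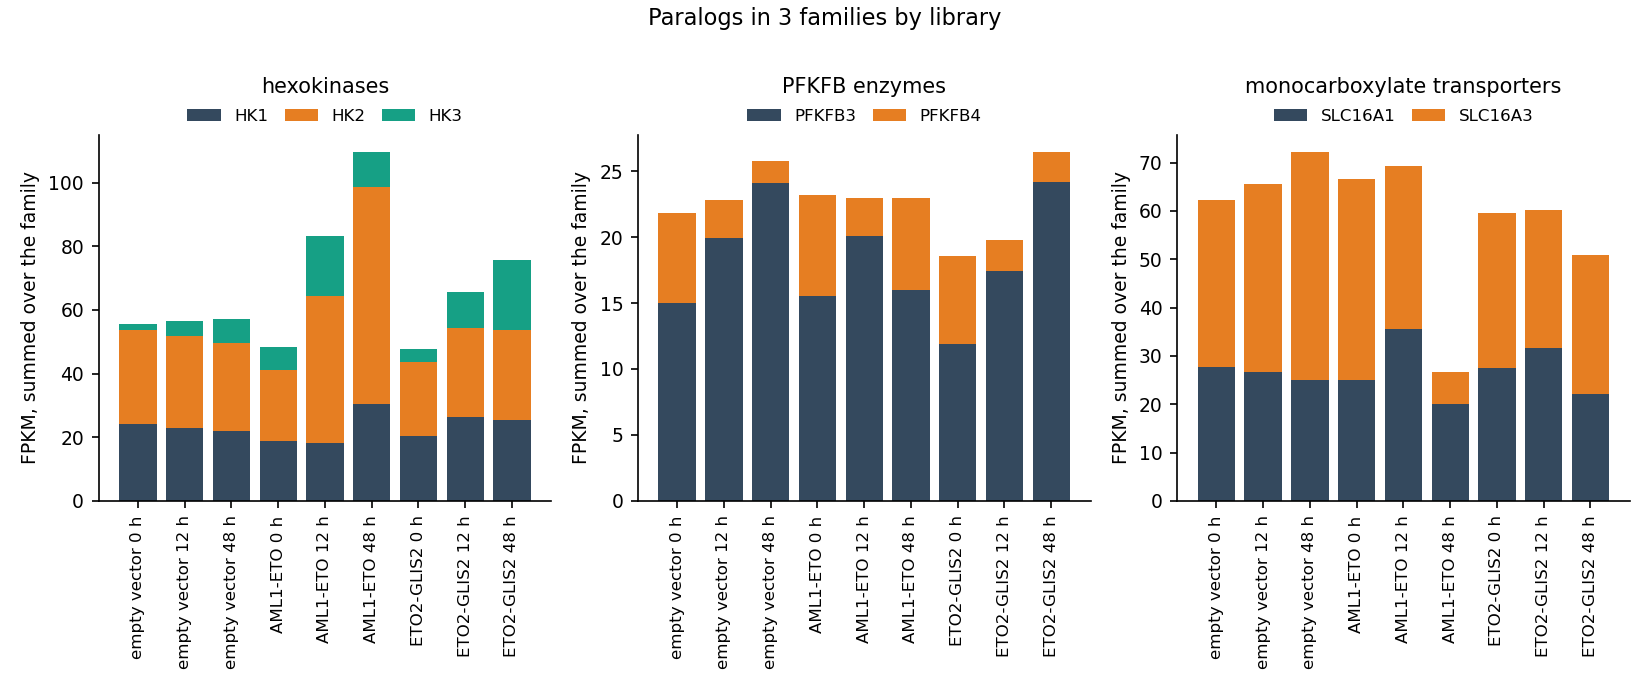
FPKM (vertical axes, from 0) of the hexokinases, the PFKFB enzymes and the monocarboxylate transporters, stacked by paralog, in each of the 9 libraries (horizontal axes). Summed hexokinase was highest in the AML1-ETO line at 48 h (110 FPKM), and the summed transporters were lowest in the same library (26.7 FPKM).

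The next enzymes carry glucose 6-phosphate to the trioses. GPI (ENSG00000105220, chromosome 19 from 34359718 to 34402413), glucose-6-phosphate isomerase, stood at 53.1, 50.7 and 39.8 FPKM in the empty vector line, 53, 42.3 and 24 FPKM in the AML1-ETO line and 41.6, 46.3 and 37.9 FPKM in the ETO2-GLIS2 line. The AML1-ETO library at 48 h was the lowest of the 9, at -1.14 [-1.20 to -1.09], but the empty vector line was also lower at 48 h, at -0.42 [-0.46 to -0.37]. Of the phosphofructokinases, which catalyse the main committed step, PFKL (39.9 to 53.7 FPKM) and PFKP (20.7 to 33.8 FPKM) stayed within -0.43 and 0.27 on the log2 scale. TPI1, triose-phosphate isomerase, lay between 149 and 211 FPKM, with 4 pseudogenes of that name summing to 9.13 to 15.2 FPKM.

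Among the enzymes that carry trioses to pyruvate, GAPDH and PKM fell with AML1-ETO. GAPDH (ENSG00000111640, chromosome 12 from 6534517 to 6538371), which is widely used as a reference gene, had the highest FPKM of the enzymes in all 9 libraries. By reads, ENO1 was above it in each of them. GAPDH stood at 770, 789 and 757 FPKM in the empty vector line, 789, 702 and 384 FPKM in the AML1-ETO line and 658, 685 and 643 FPKM in the ETO2-GLIS2 line. Only the AML1-ETO library at 48 h lay outside 643 to 789 FPKM, with a log2 fold change of -1.04 [-1.07 to -1.01]. Its 62 pseudogenes summed to at most 3.27 FPKM, and 17.6% of its exon bases lie opposite exons of other genes, whose reads this kit cannot tell apart. PGK1, PGAM1 and ENO1, which carry the same path on, were each lower at 48 h in both fusion lines, at -0.58, -0.59 and -0.32 with AML1-ETO and -0.49, -0.48 and -0.28 with ETO2-GLIS2. The empty vector values at 48 h were 0.06, -0.18 and -0.18.

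PKM (ENSG00000067225, chromosome 15 from 72199029 to 72231591), pyruvate kinase of muscle and most other cells, makes pyruvate and ATP in the last step. It stood at 240, 188 and 198 FPKM in the empty vector line and 245, 256 and 205 FPKM in the ETO2-GLIS2 line. In AML1-ETO cells the values over time were 238, 147 and 25.9 FPKM, from 33833, 19483 and 3384 reads. The 48 h library was far below the other 8, which lay between 147 and 256 FPKM. This was a 9.17-fold fall, -3.20 [-3.25 to -3.15] on the log2 scale, and 1.65% of all genes fell further in that comparison. At 12 h the value was -0.69 [-0.72 to -0.67] with AML1-ETO, -0.35 [-0.38 to -0.33] in the empty vector line and 0.06 [0.04 to 0.08] with ETO2-GLIS2. Among the 12 enzymes PKM was number 3 by FPKM in all 3 uninduced lines and was number 10 in the AML1-ETO line at 48 h. The files do not separate the M1 and M2 splice forms of PKM. Summed over the 12 enzymes, the level was 2023, 1912 and 1278 FPKM with AML1-ETO, against 1926 to 2045 FPKM with the empty vector and 1716 to 2015 FPKM with ETO2-GLIS2.

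**Figure D4:**
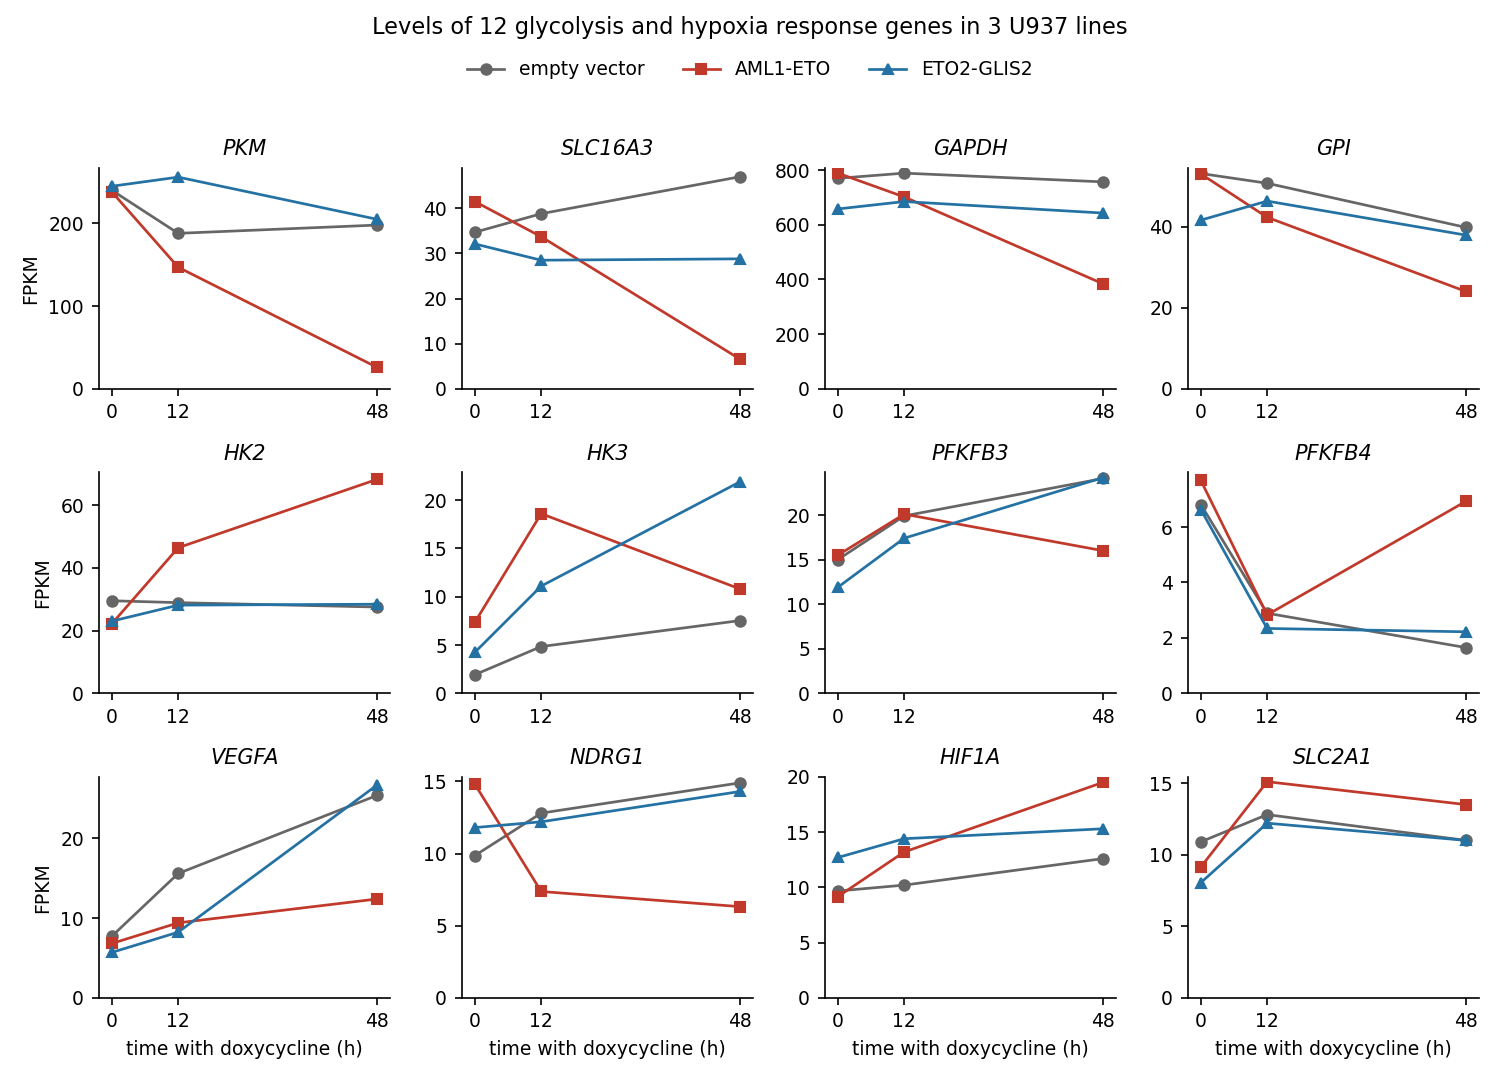
FPKM (vertical axes, from 0) against hours with doxycycline (horizontal axes) for 12 of the genes in the empty vector (grey circles), AML1-ETO (red squares) and ETO2-GLIS2 (blue triangles) lines. Each point is 1 library, so there are no error bars. PKM and SLC16A3 in the AML1-ETO line end at 25.9 and 6.57 FPKM, and PFKFB4 drops in all 3 lines at 12 h and is back at 6.93 FPKM in the AML1-ETO line at 48 h.

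PFKFB3 and PFKFB4 make and remove fructose 2,6-bisphosphate, the activator of phosphofructokinase. PFKFB4 (ENSG00000114268, chromosome 3 from 48517684 to 48563136) stood at 6.81, 2.89 and 1.65 FPKM in the empty vector line, 7.68, 2.83 and 6.93 FPKM in the AML1-ETO line and 6.63, 2.34 and 2.22 FPKM in the ETO2-GLIS2 line. All 5 induced libraries other than AML1-ETO at 48 h were below every 0 h library. The log2 fold changes at 12 h were -1.24 [-1.45 to -1.03], -1.44 [-1.65 to -1.24] and -1.50 [-1.71 to -1.29] in the order empty vector, AML1-ETO, ETO2-GLIS2, and 1.05% to 1.22% of all genes fell further in each comparison. At 48 h they were -2.04 [-2.31 to -1.79], -0.15 [-0.30 to 0.00] and -1.57 [-1.80 to -1.36].

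PFKFB3 (ENSG00000170525, chromosome 10 from 6144921 to 6326637) stood at 15, 19.9 and 24.1 FPKM in the empty vector line, 15.5, 20.1 and 16 FPKM in the AML1-ETO line and 11.9, 17.4 and 24.2 FPKM in the ETO2-GLIS2 line. The ETO2-GLIS2 value at 48 h, 1.03 [0.93 to 1.13], just passed 2-fold and was 0.86 after rescaling by the median ratio. PFKFB4 made up 31.3% to 35.9% of the summed FPKM of both genes at 0 h and 11.9% to 12.7% at 12 h. At 48 h its share was 6.41% with the empty vector, 30.2% with AML1-ETO and 8.41% with ETO2-GLIS2.

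Pyruvate is reduced to lactate by LDHA, and lactate leaves the cell through monocarboxylate transporters. SLC16A3 (ENSG00000141526, chromosome 17 from 82217934 to 82240086), also called MCT4 and the main lactate exporter of glycolytic cells, stood at 34.7, 38.8 and 47 FPKM in the empty vector line and 32.1, 28.5 and 28.8 FPKM in the ETO2-GLIS2 line. In the AML1-ETO line it had 41.5, 33.7 and 6.57 FPKM, and the 48 h library was the lowest of the 9. That fall was 6.31-fold, -2.66 [-2.76 to -2.56] on the log2 scale, while the empty vector line stood at 0.44 [0.39 to 0.49]. Its share of the summed monocarboxylate transporters SLC16A1 and SLC16A3 was 62.4%, 48.7% and 24.6% over time with AML1-ETO and 53.9%, 47.4% and 56.6% with ETO2-GLIS2. SLC16A1 (MCT1) itself ranged from 20.1 to 35.5 FPKM.

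LDHA (ENSG00000134333, chromosome 11 from 18394563 to 18408425) stood at 70, 66.4 and 67 FPKM in the empty vector line, 68, 77.9 and 47.5 FPKM in the AML1-ETO line and 71.8, 84.3 and 62.1 FPKM in the ETO2-GLIS2 line. The AML1-ETO library at 48 h was again the lowest, at -0.52 [-0.57 to -0.46], within 2-fold. PDK1 (48.1 to 79.6 FPKM) and PDK3 (2.93 to 4.63 FPKM), kinases that switch off pyruvate dehydrogenase, and PDHA1 (22.9 to 36.9 FPKM), a subunit of that enzyme, also stayed within 2-fold. All 6 genes of the pyruvate and lactate steps past the level filter were below their 0 h level at 48 h in both fusion lines, with intervals below 0. In the empty vector line 5 of the 6 were. Of all genes, 40.6% with AML1-ETO, 36.4% with ETO2-GLIS2 and 36.6% with the empty vector had a log2 fold change below 0 at 48 h.

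Among the hypoxia targets outside glycolysis, VEGFA and NDRG1 passed 2-fold. VEGFA (ENSG00000112715, chromosome 6 from 43770211 to 43786487) stood at 7.74, 15.6 and 25.4 FPKM in the empty vector line, 6.82, 9.41 and 12.4 FPKM in the AML1-ETO line and 5.7, 8.24 and 26.7 FPKM in the ETO2-GLIS2 line. Each line was higher at 12 h than at 0 h and higher again at 48 h. At 48 h the log2 fold change was 1.71 [1.64 to 1.79], 0.86 [0.77 to 0.95] and 2.23 [2.15 to 2.31] in that order. The empty vector value at 12 h, 1.01 [0.93 to 1.10], was 0.86 after rescaling.

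NDRG1 (ENSG00000104419, chromosome 8 from 133237175 to 133297252), a stress-responsive gene linked to differentiation, stood at 14.8, 7.37 and 6.32 FPKM in the AML1-ETO line. The empty vector line had 9.86, 12.8 and 14.9 FPKM and the ETO2-GLIS2 line 11.8, 12.2 and 14.3 FPKM. Both induced AML1-ETO libraries were below the other 7, with a change just past 2-fold at 12 h [-1.11 to -0.90 on the log2 scale] and of -1.22 [-1.33 to -1.12] at 48 h. The other 2 lines were above 0 at 48 h, at 0.59 [0.50 to 0.69] and 0.28 [0.20 to 0.37].

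BNIP3L (ENSG00000104765, chromosome 8 from 26383054 to 26413127), a receptor for the removal of mitochondria, had the highest mean FPKM of the hypoxia targets. It stood at 23.7, 32 and 31.1 FPKM in the empty vector line, 24.9, 27.2 and 27 FPKM in the AML1-ETO line and 29.7, 31.5 and 29.6 FPKM in the ETO2-GLIS2 line, a narrow range. The collagen prolyl hydroxylase P4HA1 (17.1 to 30.6 FPKM) and the histone demethylase KDM3A (6.16 to 8.5 FPKM) stayed within 0.46 of their 0 h level on the log2 scale in either direction. EGLN1, the main oxygen sensor that marks HIF1A for degradation, was low, at 0.875 to 2.63 FPKM, and 55.8% of its exon bases are shared with ENSG00000287856 on the same strand, so its level is uncertain.

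HIF1A (ENSG00000100644, chromosome 14 from 61695513 to 61748258) stood at 9.67, 10.2 and 12.6 FPKM in the empty vector line, 9.16, 13.2 and 19.5 FPKM in the AML1-ETO line and 12.7, 14.4 and 15.3 FPKM in the ETO2-GLIS2 line. The AML1-ETO library at 48 h was the highest of the 9, at 1.09 [0.97 to 1.22], and 13% of all genes had a larger value there. After rescaling, that value was 0.92 and no longer past 2-fold. These are RNA levels, and HIF-1 protein was not measured here.

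To set the fusion lines against the effect of the drug and of time, each gene's 48 h value with the empty vector was subtracted from theirs. With AML1-ETO, SLC16A3 (-3.10), PKM (-2.92), NDRG1 (-1.82), HK3 (-1.40) and GAPDH (-1.01) were then past 2-fold down, and PFKFB4 (1.89) and HK2 (1.72) past 2-fold up. That is 17.2% and 6.90% of the 29 genes, against 13.6% and 9.44% of all genes. GPI was at -0.73 and HIF1A at 0.71, both within 2-fold. Against 0 h of the same line, HK3 was higher with AML1-ETO (0.56), but less so than with the empty vector (1.96). Its levels at 0 h and 48 h were 7.36 and 10.8 FPKM with AML1-ETO, both above the 1.93 and 7.53 FPKM with the empty vector. PFKFB4 was not higher with AML1-ETO (-0.15), and its difference came from the fall with the empty vector (-2.04). With ETO2-GLIS2 none of the 29 genes was past 2-fold in either direction, against 4.83% of all genes up and 4.04% down, and the values ran from -0.59 (SLC16A3) to 0.67 (EGLN1). Both subtractions use the same 2 empty vector libraries.

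**Figure D5:**
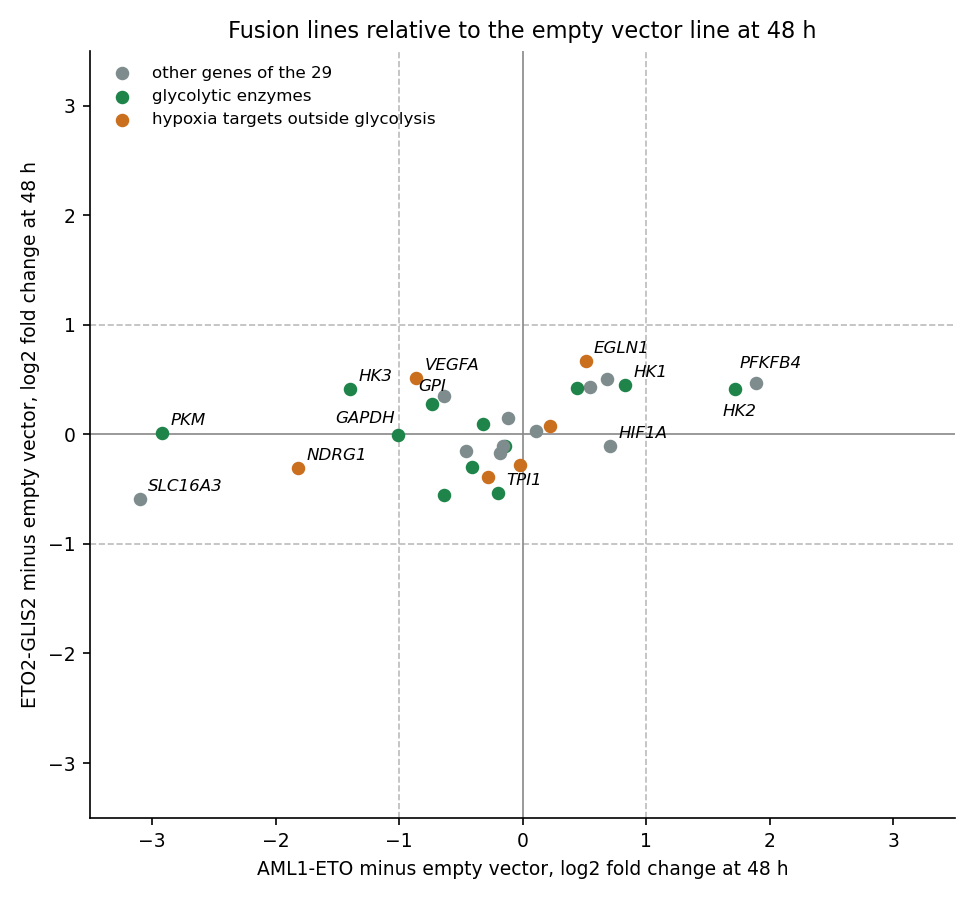
Log2 fold change at 48 h minus that of the empty vector line for the AML1-ETO line (horizontal axis) and the ETO2-GLIS2 line (vertical axis), on equal scales. Each point is 1 of the 29 genes, dashed lines mark 2-fold, and both axes share the empty vector libraries. The points spread from -3.10 to 1.89 along the AML1-ETO axis and from -0.59 to 0.67 along the ETO2-GLIS2 axis.

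The other 11 genes were under the level filter. ANKRD37, a small hypoxia target, was just under it with a mean of 0.954 FPKM and reached 1.73 FPKM in the AML1-ETO line at 12 h. EGLN1, at a mean of 1.61 FPKM, was the lowest gene above it. PFKM, ENO2 and ALDOC, isoforms typical of muscle and brain, stayed at or below 0.866 FPKM, and ADM, a vasodilator peptide, at or below 0.597 FPKM. P4HA2 reached 0.0686 FPKM, CA9 was listed at 0 in 8 of the 9 libraries and EGLN3 in all 9. ALDOA (0.307 to 0.704 FPKM) and LDHB (0.305 to 0.925 FPKM) share 42.8% and 33.4% of their exon bases with other annotated genes on the same strand, and HTSeq in its default mode counts no read that lies in exons of more than 1 gene. Their values therefore cannot be read as low expression. BNIP3 (0.298 to 0.854 FPKM) was below the sum of its 39 pseudogenes, 2.89 to 6.13 FPKM, so its level is uncertain too.

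Promoter sequences were searched for the core letters of the hypoxia response element, ACGTG or GCGTG on either strand, in the 250 bases before each annotated start. RefSeq starts on GRCh38.p14 were listed for 35 of the 40 genes, with 63 starts. The core letters were in 37 of these 63 windows (58.7%), against 43.2% of all 35097 windows. For those of the 40 genes past the level filter the share was 27 of 44 windows (61.4%), against 56.5% of 11700 windows of all genes past it. It was 17 of 35 windows (48.6%) for the 16 glycolytic enzymes and 8 of 10 (80.0%) for 9 hypoxia targets. Both of these groups include genes under the filter. Windows of 1 gene were counted separately, and HK1 and PFKM had 7 each, with the core in 1 each. By gene, most enzymes and most of these targets had the core in at least 1 window, so the 2 shares do not set the groups apart. The Runt motif, TGTGGT or TGCGGT, was in 14 of the 63 windows (22.2%), against 16.3% of all windows, and in 7 of the 44 windows (15.9%) of the genes past the filter, against 15.5%. The GLIS core TGGGGGGT was in none of the 63, against 1.33% of all windows. Because CACGTG reads the same on both strands, it counts as 2 overlapping matches. SLC2A3, SLC16A1, BNIP3L, VEGFA and NDRG1 were not in the table.

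Promoter windows are printed for 3 genes, because they belong to the enzymes that moved furthest in opposite directions with AML1-ETO, PKM and HK2, and to PFKFB4, which fell in all 3 lines at 12 h. Each runs 5′ to 3′ on the strand of the gene and ends at the base before the start, and capitals mark the hypoxia core letters. The PKM window (chr15:72231191-72231440, minus strand) holds no match to any of the 3 motifs. HK2 has 2 listed starts, and the windows (chr2:74833877-74834126 and chr2:74834920-74835169, plus strand) hold 3 and 6 matches of the hypoxia core, the first also 1 match of the Runt motif and neither a GLIS core. The PFKFB4 window (chr3:48556804-48557053, minus strand) holds 1 hypoxia core match, which begins 166 bases before the start, and neither of the other motifs. A match in these letters is a description of the sequence, and no binding was measured here.
PKM: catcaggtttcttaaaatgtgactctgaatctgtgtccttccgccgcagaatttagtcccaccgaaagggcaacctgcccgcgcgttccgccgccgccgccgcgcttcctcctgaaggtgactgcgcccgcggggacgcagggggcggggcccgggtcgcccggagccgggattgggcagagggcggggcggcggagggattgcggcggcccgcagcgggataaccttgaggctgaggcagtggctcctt
HK2 first start: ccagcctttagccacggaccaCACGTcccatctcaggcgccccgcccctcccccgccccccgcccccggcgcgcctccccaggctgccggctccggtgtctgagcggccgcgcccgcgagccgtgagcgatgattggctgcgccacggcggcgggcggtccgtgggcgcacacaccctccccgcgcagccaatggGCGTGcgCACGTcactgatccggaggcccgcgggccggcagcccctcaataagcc
HK2 second start: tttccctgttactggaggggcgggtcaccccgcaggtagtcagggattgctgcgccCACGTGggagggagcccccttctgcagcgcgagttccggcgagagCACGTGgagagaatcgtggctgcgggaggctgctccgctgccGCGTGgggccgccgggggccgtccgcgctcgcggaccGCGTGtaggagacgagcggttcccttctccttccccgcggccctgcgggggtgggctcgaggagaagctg
PFKFB4: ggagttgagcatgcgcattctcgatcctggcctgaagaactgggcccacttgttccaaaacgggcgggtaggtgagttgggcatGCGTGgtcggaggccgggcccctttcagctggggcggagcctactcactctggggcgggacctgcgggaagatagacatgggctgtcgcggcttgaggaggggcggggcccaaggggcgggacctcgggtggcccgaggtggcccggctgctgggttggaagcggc

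Other genes of the same pathways, from 6 lists written beside the 40 genes, give the setting at 48 h, when 15.0% of all genes rose and 12.2% fell with AML1-ETO, 10.8% and 2.79% with ETO2-GLIS2, and 8.35% and 2.99% with the empty vector. Of 20 other glycolytic isoforms and side steps only 4 passed the level filter, and ENO3, a muscle enolase, was the 1 that passed 2-fold, at -1.06 with AML1-ETO. Of 21 other hypoxia targets past the filter, 5 rose and 2 fell with AML1-ETO, 2 rose and 1 fell with ETO2-GLIS2, and 3 rose and none fell in the empty vector line. Their median at 48 h was 0.52 with AML1-ETO, 0.22 with ETO2-GLIS2 and 0.20 with the empty vector, against 0.18, 0.16 and 0.16 for all genes. Of 10 other regulators of the HIF pathway, 2 rose with AML1-ETO and 1 in each of the other lines. Of 10 genes of pyruvate entry to mitochondria, 3 fell with AML1-ETO, none with ETO2-GLIS2 and 1 in the empty vector line. In the pentose phosphate pathway, which branches from glucose 6-phosphate, 1 of 7 genes fell in each fusion line. Of the 2 gluconeogenic genes past the filter, 1 rose with ETO2-GLIS2.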

How the data were processed

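RNA-seq of 9 libraries was analysed. The authors prepared libraries with the TruSeq RNA kit version 2, which does not mark strand, aligned reads to hg38 with HISAT2 (2.0.5), processed the alignments using SAMtools (1.7), assigned reads to genes by HTSeq (0.9.1) in default mode and deposited FPKM per gene. The HTSeq default counts only reads on the strand of the gene, although this kit leaves strand unmarked, and the effect of this on the levels is not known. DESeq2 (1.22.2) is also listed in the submitters' processing notes. The annotation version is not given in the sources used here.

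Log2(FPKM + 0.01) was compared within each line in Python (3.11.15). Tables used pandas (2.3.3) and numpy (2.4.6), intervals scipy (1.17.1) and figures matplotlib (3.10.9). Genes needed a mean of at least 1 FPKM over the 9 libraries. A change past 2-fold was called, with no test, since each condition had 1 library. Reads were recovered from the steps of the FPKM for 23878 of 23889 genes (99.95%) and used only for exact Clopper-Pearson intervals, which cover counting error only, since PCR copies could not be removed by molecular identifiers. The recovery and the calling were tested on simulated data.

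Values in all 9 libraries are given for genes past 2-fold in any comparison, for the gene with the highest mean FPKM in each group and for HIF1A. Those of the others are given as ranges. From the other lists, up to 3 genes past 2-fold at 48 h in a fusion line were named. The 40 genes, their groups and the lists were chosen with earlier results of these data known. Coordinates and promoters are from RefSeq (GRCh38.p14); exon overlaps were computed on a GRCh37 lift of GENCODE, from which no coordinates were taken.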

Additional observations from a re-analysis of the deposited data

How the results depend on the processing

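Within a line no paired analysis was possible because each condition had 1 library. No label pairs libraries beyond the line they come from, and a fit of a time effect common to the 3 lines was not run. The alternatives were a pseudocount of 1 FPKM, no filter, a mean of at least 5 FPKM, a mean of at least 1 FPKM in the 2 libraries compared, rescaling by the median ratio, a 1.5-fold threshold, a wider glycolysis group and, chosen after seeing the data, the enzymes without PKM. Medians that stayed within their order-statistic interval are counted as kept, but with 6 targets this interval is their whole range. The filter on the 2 libraries compared kept the medians and counts in this sense, the wider group kept the enzyme medians and the differences, and leaving out PKM kept the enzyme medians, the only values computed there.

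Rescaling took the medians of all genes from 0.11 to 0.18 on the log2 scale to -0.01 to 0.02. It took the enzyme median to -0.23 at 12 h and -0.27 at 48 h with the empty vector, to -0.18 at 12 h with AML1-ETO, and turned it from 0.07 to -0.05 at 12 h with ETO2-GLIS2. At 48 h the enzyme median went from -0.38 to -0.54 with AML1-ETO and from -0.08 to -0.25 with ETO2-GLIS2, within the order-statistic intervals. The target medians also turned, to -0.02 at 12 h and -0.04 at 48 h with AML1-ETO and to -0.04 and -0.02 with ETO2-GLIS2, while all genes were then near 0. The number of rises became 1 with the empty vector at 12 h and 1 at both times with AML1-ETO, and the number of falls 2 in the empty vector line at 48 h. A pseudocount of 1 FPKM left 0 rises in the empty vector line at 12 h, where VEGFA stood at 0.93 and HK3 at 0.99, and 1 fall with AML1-ETO at 12 h, where NDRG1 stood at -0.91. PFKFB3 with ETO2-GLIS2 at 48 h went to 0.97.

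Without a filter, the AML1-ETO enzyme median at 48 h turned from -0.38 to 0.10 and targets minus enzymes from 0.50 to -0.10, and this difference went from 0.23 to 0.05 with ETO2-GLIS2 at 48 h. There were then 4 rises and 2 falls at 12 h and 5 rises and 3 falls at 48 h in the empty vector line, and 2 falls at 12 h and 5 rises at 48 h with ETO2-GLIS2. With a mean of at least 5 FPKM, which removes PFKFB4, there were 0 falls at either time in the empty vector and ETO2-GLIS2 lines and 1 at 12 h with AML1-ETO. At 1.5-fold there were 4 rises and 2 falls at 48 h in the empty vector line, 4 falls at 12 h and 5 rises at 48 h with AML1-ETO, and 2 rises at 12 h with ETO2-GLIS2.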

Other observations

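The genes named below lie outside the 40. They are, in each list, up to 3 with the largest change among those past 2-fold at 48 h in either fusion line. They therefore do not describe their lists, and some were also past 2-fold in the empty vector line. With AML1-ETO at 48 h, 15.0% of all genes rose and 12.2% fell. The 21 other hypoxia targets past the level filter had a median of 0.52 there, with 5 rises and 2 falls, and the 2 that fell were CXCR4 and BHLHE40. CXCR4, a chemokine receptor that HIF-1 can activate, went from 101 to 74.2 and 2.07 FPKM in the AML1-ETO line, a log2 fold change of -5.61 at 48 h, against -0.34 in the empty vector line and -1.16 with ETO2-GLIS2. BHLHE40, a transcriptional repressor of the circadian and hypoxia responses, went from 22.9 to 6.73 and 1.31 FPKM with AML1-ETO, at -4.12, and stayed between 17 and 25.5 FPKM in the other lines. EPAS1, which encodes HIF-2α, went from 5.16 to 15.4 FPKM at 48 h with AML1-ETO, at 1.58, and lay between 3.46 and 6.16 FPKM in the other lines. DDIT4, an inhibitor of mTORC1 signalling, rose at 48 h in all 3 lines, by 3.40 in the empty vector line, 2.32 with AML1-ETO and 2.66 with ETO2-GLIS2 on the log2 scale. EGLN2, a prolyl hydroxylase of HIF, stood at 1.35, 1.24 and 1.58 at 48 h in the same order, from low 0 h levels of 0.86, 1.01 and 0.709 FPKM. Exon overlap was not examined for genes outside the 40.

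On the pyruvate side, MPC1, a subunit of the mitochondrial pyruvate carrier, went from 42.6 to 15.2 FPKM at 48 h with AML1-ETO, at -1.49, and was at 0.31 in the empty vector line and 0.04 with ETO2-GLIS2. DLAT, a pyruvate dehydrogenase subunit, stood at -0.57, -1.40 and -0.88 at 48 h in the empty vector, AML1-ETO and ETO2-GLIS2 lines. PC, pyruvate carboxylase, stood at -1.25, -1.17 and -0.65. TKT, transketolase of the pentose phosphate pathway, was at -0.85, -1.02 and -1.05. PCK2, the mitochondrial enzyme that makes phosphoenolpyruvate, was at 0.94, -0.13 and 1.08.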
